A study of Arabidopsis thaliana with 22 samples.

Results

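The regions described here were 1419 peaks of trimethylated lysine 4 of histone H3 (H3K4me3) that lie around the centromeres of Arabidopsis thaliana. They were chosen by position from the H3K4me3 peak list of wild-type (WT) inflorescences, as the peaks whose midpoint lay between 13.1 and 16.7 Mb on chromosome 1, 3.8 and 6.1 Mb on chromosome 2, 11.3 and 15.9 Mb on chromosome 3, 2.7 and 5.6 Mb on chromosome 4 or 10.1 and 13.9 Mb on chromosome 5. The list held 23884 peaks on the 5 nuclear chromosomes, so 22465 peaks lay on the arms. The windows covered 17.2 Mb and the arms 101.9 Mb. Because membership was selected on the measured H3K4me3 peaks and on windows poor in genes, the number of peaks and their gene context are a description with no test.

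The series profiled chromatin of Col-0 inflorescences by chromatin immunoprecipitation and sequencing (ChIP-seq). NRPD1-HA, a hemagglutinin (HA)-tagged form of the catalytic subunit of RNA polymerase IV (Pol IV) under the promoter of its own gene (pNRPD1::NRPD1-HA), was profiled in WT and in zmp-2 mutant plants with 2 libraries each. ZMP-HA (pZMP::ZMP-HA, also under its own promoter, in WT) had 2 libraries, and WT plants with no transgene had 2 libraries run with the NRPD1-HA samples (set A) and 2 run with the ZMP-HA samples (set B). H3K4me3 was profiled in WT plants with no transgene in a single library. Its values therefore carry no replicate error, and no H3K4me3 library of zmp-2 was among the samples. The labels list no antibody for set A, and nothing in them says that the replicates of a group came from separate plantings. NRPD1-HA and ZMP-HA were separate experiments, so distances compared between them are across experiments.

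H3K4me3 is laid down at the 5′ ends of genes that RNA polymerase II transcribes, and is usually poor in the compacted chromatin around centromeres, which is rich in transposons and satellite repeats. Pol IV is a plant polymerase that transcribes mainly transposons and repeats into precursors of small interfering RNAs, which direct DNA methylation. ZMP is a chromatin protein with a PHD domain, a fold that in many proteins reads the methylation state of histone H3 lysine 4. The question put to these peak lists was what H3K4me3 peaks in Pol IV-rich chromatin look like, and how near the peaks of Pol IV and ZMP come to them.

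The lists held 6730 to 8655 peaks for the tagged libraries and 294 to 952 for the libraries with no transgene. Read counts per sample were not used here. The background coverage shared by most peaks of a list, recovered from the deposited fold and p-values, was 5.37 fragments per base for H3K4me3 and 20.1 to 41.0 for the 10 other libraries, with the WT NRPD1-HA libraries at 25.02 and 41.0 and the zmp-2 NRPD1-HA libraries at 26.6 and 38.7. The low background coverage of the H3K4me3 list is not a measure of library depth, which was not compared here. Weak peaks may be missed, and a region missing from a list may lie just under its threshold.

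The sequences under the summits of the members showed that they are not of a single kind. Of the 1419 members, 346 (24.4%) held at least 3 copies on 1 strand of aaacccta, the plant telomere repeat unit with 1 further base (the telo-box), in the 301 bases centred on the summit, and these are called telomere-like members below. Another 35 (2.47%) held a perfect run of at least 40 bases of a 1- to 3-base unit. In 29 of those the unit was GA on either strand and in 6 it was a 3-base unit of the GAA type. The telomere-like and simple-repeat subsets were defined after their sequences were seen. In the arms, 21 of 22465 peaks (0.0935%) met the first definition and 116 (0.516%) the second. The following 151-base stretches, centred on the summit and read 5′ to 3′ on the forward strand of TAIR10 (sequence from the RefSeq TAIR10.1 assembly), show the most repeat-rich telomere-like member of chromosomes 1, 4 and 3, the strongest GA-repeat member, and the members at the 5′ ends of J3 and AT5G34930. Capitals mark every telo-box on either strand, or the longest perfect run in the GA-repeat member.
Telomere-like, chr1:15143230-15143380: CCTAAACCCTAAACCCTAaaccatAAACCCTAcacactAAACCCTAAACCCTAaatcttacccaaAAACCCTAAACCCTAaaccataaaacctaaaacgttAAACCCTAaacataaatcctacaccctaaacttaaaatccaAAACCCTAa
Telomere-like, chr4:3246789-3246939: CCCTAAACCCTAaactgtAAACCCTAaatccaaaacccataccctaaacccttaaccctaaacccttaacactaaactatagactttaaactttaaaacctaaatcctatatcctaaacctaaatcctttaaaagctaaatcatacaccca
Telomere-like, chr3:13633058-13633208: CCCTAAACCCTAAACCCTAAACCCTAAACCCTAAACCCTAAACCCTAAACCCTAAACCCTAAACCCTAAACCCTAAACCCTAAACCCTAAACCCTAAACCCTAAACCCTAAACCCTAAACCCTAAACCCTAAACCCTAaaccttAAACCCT
GA repeat, chr4:5360919-5361069: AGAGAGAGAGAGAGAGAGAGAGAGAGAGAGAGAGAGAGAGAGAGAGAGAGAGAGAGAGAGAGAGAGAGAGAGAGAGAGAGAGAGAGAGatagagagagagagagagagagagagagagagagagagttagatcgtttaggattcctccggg
J3 5′ end, chr3:15870622-15870772: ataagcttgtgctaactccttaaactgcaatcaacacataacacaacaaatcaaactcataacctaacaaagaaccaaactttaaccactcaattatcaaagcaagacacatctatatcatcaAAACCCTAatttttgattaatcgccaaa
AT5G34930 5′ end, chr5:13233426-13233576: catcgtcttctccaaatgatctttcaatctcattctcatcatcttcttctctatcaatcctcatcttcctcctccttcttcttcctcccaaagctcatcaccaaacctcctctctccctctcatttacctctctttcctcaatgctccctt

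The stretch from chromosome 3 is an almost unbroken telomere array, and 100 bases at its summit occurred 38 times in the assembly. Those from chromosomes 1 and 4 are degenerate, with telo-boxes set among diverged copies, and occurred 2 and 3 times. The 100 bases at the summit of the GA-repeat member occurred once. The J3 stretch carries a lone telo-box, whereas the AT5G34930 stretch has none and is rich in TC on the strand shown.

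The telomere-like members were concentrated at a pair of loci. Chromosome 1 held 265 of them, which was 54.9% of its 483 members, and the middle 90% lay in chr1:15098670-15424519. Chromosome 4 held 72, or 25.8% of its 279 members, with the middle 90% in chr4:3196973-3260007. Chromosome 3 held 7, and chromosomes 2 and 5 held 1 each. On chromosome 1 the telo-box lay on the forward strand in 259 of 265. Of the 346, 343 (99.1%) lay in intergenic sequence, 2 at a protein-coding 5′ end and 1 in a pseudogene. In 344 of 346 (99.4%) the local background of the library, which the peak caller takes from the input or from the genome-wide coverage, was more than 5% above the usual level. Their median background was 20.3 fragments per base, and their median fold enrichment was 2.83 (quartiles 2.34 and 3.83) with a maximum of 13.8. Their median width was 181 bases. Only 34.7% had a summit sequence of 100 bases found once in the assembly, against 92.7% of the other 1073 members, so that their reads could have come from more than 1 copy. The part of copy number in these peaks was not tested.

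H3K4me3 peaks were sparser in the windows than on the arms, at 82.5 against 220 per Mb, but less sparse than genes. There were 52.8 protein-coding genes per Mb in the windows (908 genes) and 260 per Mb on the arms (26536 genes), which gave 1.56 peaks per gene against 0.847. Peaks per gene ranged from 0.95 on chromosome 3 to 2.84 on chromosome 1 within the windows and from 0.838 to 0.856 on the arms. Of the 908 protein-coding genes of the windows, 295 (32.5%, exact binomial 95% interval 29.4% to 35.6%) had an H3K4me3 peak within 500 bases of the 5′ end, against 56.2% (55.6% to 56.8%) on the arms. Pseudogenes, many of which are transposon remnants, had a peak there in 192 of 2692 cases (7.13%) in the windows and in 12.6% on the arms. Non-coding RNA genes had one in 40 of 320 (12.5%) and 29.3%. These intervals, from the Clopper-Pearson method as are all below, cover counting error over peaks or genes only.

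Most members lay outside genes. Only 331 members (23.3%, 21.1% to 25.6%) lay within 500 bases of a protein-coding 5′ end, against 71.2% (70.7% to 71.8%) of arm peaks. Another 89 (6.27%) lay elsewhere in a protein-coding gene, 189 (13.3%) in a pseudogene, 19 (1.34%) in a non-coding RNA gene and 791 (55.7%) in none of these. On the arms the shares were 24.4%, 1.04%, 1.05% and 2.28%. The telomere-like members accounted for 343 of the 791 intergenic members, and 448 intergenic members remained without them. The share at 5′ ends was lowest on chromosome 1 (14.3%) and highest on chromosome 2 (33.5%), and on no chromosome did it reach the lowest arm value of 69.0%. With each window cut into 5 equal stretches, the share at a 5′ end was, in chromosome order, 25.2%, 15.3%, 6.80%, 15.3% and 50.5%. A raised background was found at 44.8%, 36.9%, 78.3%, 59.7% and 23.6% of the same members.

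**Figure D1:**
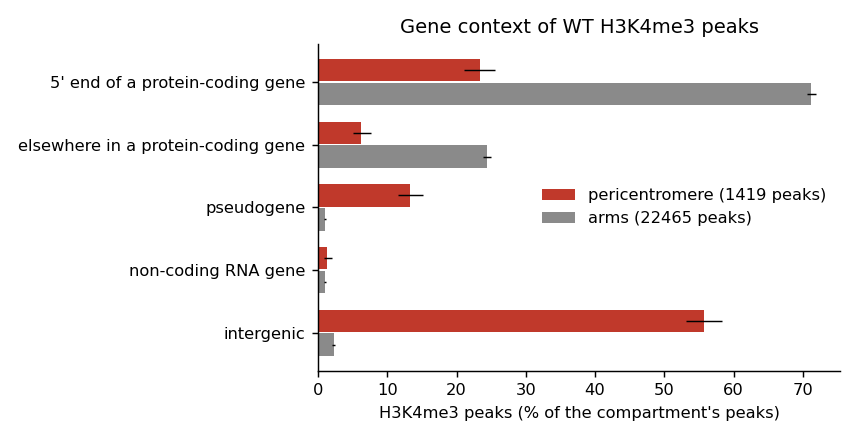
Gene context of the WT H3K4me3 peaks. Bars give the share (%) of the 1419 pericentromeric peaks and of the 22465 arm peaks in each context, with exact binomial 95% intervals; intergenic peaks made up 55.7% of the former and 2.28% of the latter.

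Members were narrower and weaker than arm peaks as a whole, but not at gene 5′ ends. Median width was 188 bases (quartiles 143.5 and 275) against 270 (170 and 450), and median fold enrichment was 3.77 (2.83 and 6.11) against 5.50 (3.93 and 8.95). At protein-coding 5′ ends the members had a median width of 340 bases and a fold of 6.28, and arm peaks had 319 bases and 6.13. Away from 5′ ends and outside telomere-like sequence, the 744 members had a median width of 169 bases and a fold of 3.70. Arm peaks away from 5′ ends were also narrow and weak, with medians of 195 bases and 4.40. The 448 intergenic members outside telomere-like sequence had 161 bases and 3.47, and intergenic arm peaks 169 bases and 3.93. Peaks over 500 bases wide made up 9.09% of members and 20.6% of arm peaks, and peaks with a fold over 10 made up 11.1% and 21.1%. These values come from a single library and carry no replicate error.

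**Figure D2:**
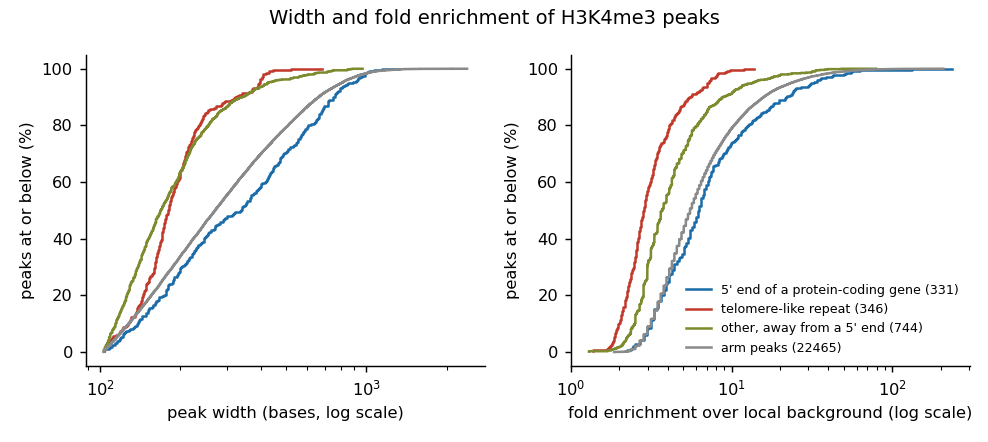
Cumulative distributions of peak width (left, bases) and fold enrichment (right), both on log axes, for 331 members at protein-coding 5′ ends, 346 telomere-like members (2 of them also at a 5′ end), the other 744 members and the 22465 arm peaks. The width curve of the 5′ end members lies to the right of the curve of all arm peaks (medians 340 and 270 bases), and those of the other members to its left.

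The 10 peaks nearest to the window edges on the inside had widths of 122 to 891 bases and folds of 2.58 to 19.6, and 5 of them lay at a protein-coding 5′ end. The 10 nearest on the outside had widths of 129 to 744 bases and folds of 2.83 to 43.8, and 7 lay at a 5′ end.

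The strongest members were at genes and at GA repeats. The highest fold of all, 236, was at the start of AT5G34930 (chr5:13233231-13233766), which encodes arogenate dehydrogenase, an enzyme of tyrosine synthesis. ACC1, the cytosolic acetyl-CoA carboxylase that makes malonyl-CoA for long fatty acids, had a fold of 133 over 933 bases. The peak at AT2G13422, an uncharacterized gene that overlaps a pseudogene, had a fold of 93.2, and that at J3, a DnaJ co-chaperone, 55.3. GTA2, annotated as a transcription elongation factor, had 51.2 and SAPX, the ascorbate peroxidase of the chloroplast stroma, 49.9. AT3G32930, uncharacterized, had 55.8. A member with a fold of 62.5 overlapped the pseudogene AT4G07507, and lay 370 bases from the 5′ end of AT4G07455, also uncharacterized. The remaining members of the 10 strongest were intergenic and lay on GA runs, at chr4:5360849-5361156 (fold 79.3) and chr2:6002242-6002485 (fold 48.1). Of the 17 intergenic or pseudogene members with a fold of at least 20, 9 held a simple repeat run, against 1 of 38 members at protein-coding 5′ ends. The widest members were at G3Pp5, a glycerol-3-phosphate permease (1326 bases, fold 24.3), over AT4G07507 near AT4G07455 (1143 bases) and at AT1G42470, a Patched family protein (1108 bases, fold 11.8).

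Taken over all members, sequence words other than the telo-box differed less. The telo-box stood in the 301-base window of 33.3% of members, 11.4% of arm peaks and 12.7% of all H3K4me3 peaks. At protein-coding 5′ ends these shares were 16.9% (13.04% to 21.4%) and 13.2%, and among members at the usual background 9.82%. The site II word TGGGCC was in 4.09% of members and 2.35% of arm peaks, the GA repeat word GAGAGAGA in 12.1% and 16.9%, and TATAAA in 32.1% and 25.4%, each searched on both strands. Over all 23884 peaks the shares were 2.45%, 16.6% and 25.8%. At protein-coding 5′ ends they were 2.11%, 18.7% and 27.5% for members and 2.56%, 19.7% and 25.7% for arm peaks. Among intergenic peaks they were 4.30%, 9.36% and 38.7% for members and 1.95%, 26.9% and 39.4% for arm peaks. The median GC content was 35.5% under members and 37.9% under arm peaks, while the whole windows had 37.1% and the arms 35.9%.

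Pol IV and ZMP peaks lay much nearer to the members than to arm peaks. In WT, 41.6% and 44.3% of members had an NRPD1-HA peak within 1 kb (edge to edge, 42.9% ± 1.89, SD, n = 2), against 11.0% and 11.9% of arm peaks (11.4% ± 0.683). In zmp-2 the values were 33.8% and 44.9% (39.4% ± 7.82) against 11.5% and 14.7% (13.1% ± 2.26). For ZMP-HA they were 51.4% and 43.3% (47.3% ± 5.73) against 6.84% and 6.13% (6.48% ± 0.507). In every one of these 6 libraries the share was higher for members than for arm peaks, and the gap exceeded the spread between replicates. The libraries with no transgene gave 2.04% and 12.1% in set A for members, with 5.92% and 8.03% for set B, and 0.694%, 0.472%, 0.111% and 0.0935% for arm peaks. Median distances from a member to the nearest peak were 1895 and 1510 bases in WT, 3203 and 1443 in zmp-2 and 968 and 1462 for ZMP-HA, against group means of 10660, 9101 and 19552 bases on the arms.

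The windows are rich in Pol IV and ZMP peaks throughout. Members as a whole were no nearer to WT Pol IV or ZMP-HA peaks than the bases of the windows were. WT NRPD1-HA peaks numbered 143 and 140 per Mb in the windows and 46.9 and 50.1 on the arms, and ZMP-HA peaks 213 and 195 against 35.1 and 33.1. Of all bases in the windows, 43.7% and 48.3% lay within 1 kb of a WT NRPD1-HA peak. For zmp-2 this share was 28.8% and 42.4%, below both WT values, and for ZMP-HA 56.2% and 45.6%. The share of member midpoints within 1 kb of a peak was divided by that share of bases. This ratio was 0.910 and 0.862 in WT, 1.11 and 1.00 in zmp-2 and 0.856 and 0.880 for ZMP-HA. On the arms this ratio averaged 0.657 in WT, 0.687 in zmp-2 and 0.631 for ZMP-HA. At protein-coding 5′ ends the ratio for members was 1.01 ± 0.0441 in WT and 1.43 ± 0.0823 in zmp-2, where both libraries exceeded both WT libraries. The zmp-2 ratios rest on the lower shares of bases given above. On the arms the ratio at 5′ ends was 0.619 ± 0.000793 in WT and 0.664 ± 0.00106 in zmp-2. For ZMP-HA it was 0.554 ± 0.0306 for members and 0.556 ± 0.0152 on the arms, a difference within the spread between replicates.

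The 3 kinds of members differed in these distances. Members at protein-coding 5′ ends had a WT NRPD1-HA peak within 1 kb in 49.5% and 53.5% of cases, and overlapped it in 13.3% and 10.3%. The 744 other members away from 5′ ends had it within 1 kb in 55.6% and 58.6% and overlapped it in 34.4% and 40.1%. Of the telomere-like members, only 3.47% and 4.34% had a WT NRPD1-HA peak within 1 kb, fewer than arm peaks, and their median distance was 44067 and 36797 bases. Of the 21 arm peaks that met the same definition, 9 (42.9%) had one within 1 kb in each WT library. The low share was therefore not common to all telomere-like H3K4me3 peaks. ZMP-HA peaks were within 1 kb of 32.9% and 29.5% of the telomere-like members, but so were peaks of the libraries with no transgene, at 2.31% and 30.9% for set A libraries and 17.3% and 22.8% for those of set B. The set B values were below those of ZMP-HA in each library, and 1 set A library lay between the ZMP-HA values. At 5′ ends ZMP-HA reached 36.3% and 31.7% of members while none of the 4 libraries with no transgene passed 0.906%. Of the other 744 members, ZMP-HA reached 66.7% and 54.7% and the libraries with no transgene 2.42% to 8.47%.

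**Figure D3:**
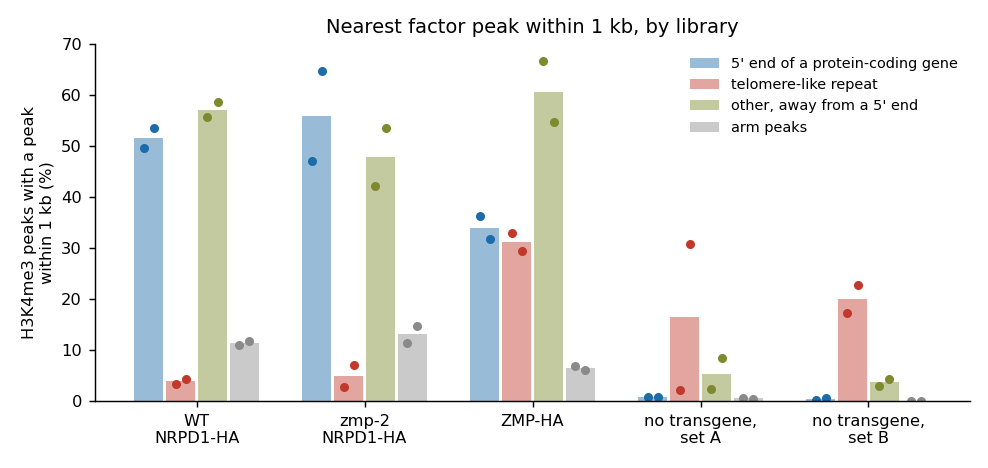
Share (%) of H3K4me3 peaks with a peak of each group within 1 kb. Bars are means and points the 2 libraries, for members at protein-coding 5′ ends, telomere-like members, the other members and arm peaks; the telomere-like members are low for NRPD1-HA (3.47% and 4.34% in WT) and at 29.5% and 32.9% for ZMP-HA.

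**Figure D4:**
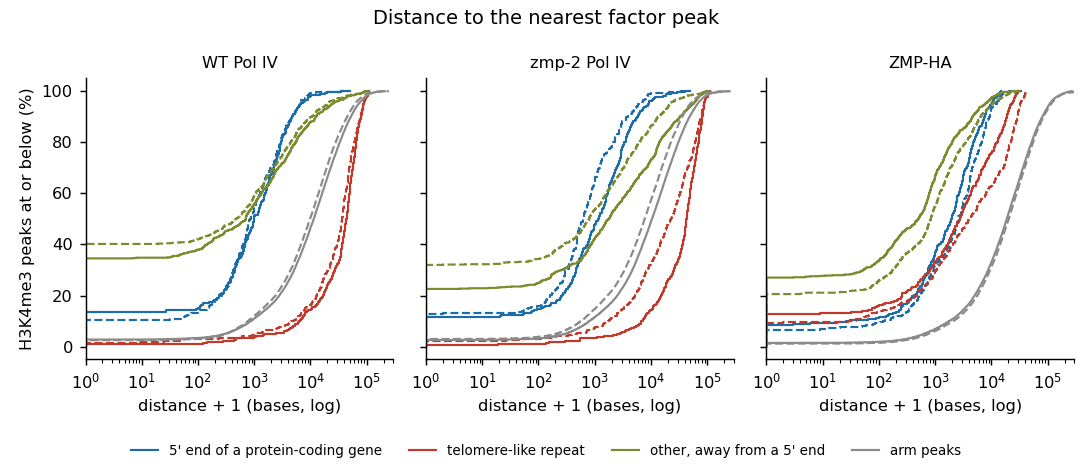
Cumulative share (%) of H3K4me3 peaks by edge-to-edge distance to the nearest WT Pol IV, zmp-2 Pol IV and ZMP-HA peak (bases plus 1, log axis), with replicate 1 solid and replicate 2 dashed. Curves start at the share that overlaps, which in WT was 34.4% and 40.1% for members away from 5′ ends and telomere-like sequence.

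The simple-repeat members mostly lay under Pol IV peaks. Of these 35 members, 28 and 26 overlapped an NRPD1-HA peak in the WT libraries, 25 and 27 in the zmp-2 libraries, and 17 and 10 a ZMP-HA peak, and none had a peak of a library with no transgene within 1 kb. On the arms, 19 and 18 of the 116 simple-repeat peaks overlapped a WT NRPD1-HA peak. A count of 0 among 35 allows a share of up to 8.57%, taken as 3 counts of 35 and for counting error only.

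Chromosome 1, with the most telomere-like members, had the lowest share of members with a WT NRPD1-HA peak within 1 kb (21.9% and 23.8%) and chromosome 3 the highest (62.3% and 66.4%). The pericentromeric share exceeded the arm share on each of the 5 chromosomes in each of the 6 tagged libraries. Without the telomere-like members, the share over all chromosomes was 53.9% and 57.1% in WT, 43.8% and 57.0% in zmp-2 and 57.3% and 47.7% for ZMP-HA.

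The comparison of genotypes asked whether loss of ZMP changed Pol IV near the members. The share within 1 kb was 3.56 percentage points lower in zmp-2 than in WT, but the difference was -7.75 points between the libraries numbered 1 and 0.634 between those numbered 2. An exact two-sided permutation test over libraries gave p = 1, and the smallest p that 2 libraries against 2 allow is 0.333. Without zmp-2 replicate 1 the difference was 1.97 points, so the direction rested on that library. With the lists cut to equal length it was -6.94 points (exact permutation p = 0.333). The share overlapped by Pol IV was 21.4% and 23.7% in WT (22.5% ± 1.64), against 14.5% and 20.0% in zmp-2 (17.3% ± 3.89). Both zmp-2 libraries were below both WT libraries, a difference of -5.25 points, with the exact permutation p at its minimum of 0.333. On the arms the same share was 2.62% ± 0.170 and 2.78% ± 0.261. NRPD1-HA peaks also covered fewer of all window bases, at 12.2% and 21.6% for zmp-2 against 22.8% and 28.2% for WT. The share of member midpoints covered, divided by that share of bases, was 0.996 and 0.794 for zmp-2 against 0.833 and 0.754 for WT. These ratios overlapped between genotypes, so a fall relative to the window bases was not seen. The difference within 1 kb, taken as windows minus arms, fell by 5.23 points from WT to zmp-2 (exact permutation p = 0.333).

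This lower overlap was not seen at gene 5′ ends. There the overlap was 11.8% ± 2.14 in WT and 11.9% ± 0.641 in zmp-2, and the share within 1 kb was 51.5% ± 2.78 and 55.9% ± 12.4 (exact permutation p = 1 for both). Of the 744 other members away from 5′ ends, the overlap was 37.2% ± 3.99 in WT and 27.2% ± 6.65 in zmp-2, lower in both zmp-2 libraries than in either WT library (-10.1 points, exact permutation p = 0.333). Within 1 kb these members gave 57.1% ± 2.09 and 47.8% ± 7.98 (-9.27 points, exact permutation p = 0.333). Coverage of the window bases by NRPD1-HA fell as well, as given above. For all 1088 members away from 5′ ends, telomere-like ones included, covered midpoints over covered bases gave 1.09 and 0.921 for zmp-2. The WT ratios were 0.957 and 0.905, so the genotypes overlapped. This ratio was not taken for the 744 alone. Whether the change differed between the 744 and the 5′ end members was not tested. The telomere-like members overlapped NRPD1-HA in 1.01% ± 0.204 of cases in WT and 1.01% ± 1.02 in zmp-2. These shares rest on 3 and 4 of the 346 members in WT and 1 and 6 in zmp-2.

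Members were also counted by calls that held in both libraries of a group. Such a count cannot exceed that of the lower library, which for zmp-2 was 480 members within 1 kb in replicate 1, so these counts are no separate support for a difference between genotypes. Members with a peak within 1 kb in both WT libraries numbered 555 (39.1%), beside 11.9% of all 23884 H3K4me3 peaks. In both zmp-2 libraries there were 469 (33.1%) beside 12.4%, and in both ZMP-HA libraries 559 (39.4%) beside 7.47%. For overlap the members numbered 261 (18.4%) beside 3.22% in WT, 182 (12.8%) beside 2.91% in zmp-2 and 161 (11.3%) beside 1.57% for ZMP-HA. Members with Pol IV within 1 kb in both WT and neither zmp-2 library numbered 47 (3.31%) beside 0.389%, and those with the reverse 11 (0.775%) beside 0.909%. For overlap these numbers were 36 (2.54%) beside 0.243% and 1 (0.0705%) beside 0.172%. That single member lay at the start of TPR8, a tetratricopeptide repeat gene named here after its value was seen. On the arms the order was opposite, with 46 WT-only and 206 zmp-2-only peaks within 1 kb. All 6 tagged libraries had a peak within 1 kb of 291 members (20.5%) beside 5.93%, and overlapping 80 (5.64%) beside 1.07%. No tagged library had one within 1 kb of 437 members (30.8%), against 83.7% of arm peaks. A further 136 members (9.58%) had ZMP-HA within 1 kb in both libraries and NRPD1-HA in none of 4, against 20 arm peaks (0.0890%). Of those 136 members, 76.5% had a raised background. At least 1 of the 4 libraries with no transgene had a peak within 1 kb of 228 members (16.1%), against 257 arm peaks (1.14%). How many of the 136 are among these was not counted.

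Of the members overlapped in all 6 tagged libraries, the 5 with the highest H3K4me3 fold were at chr4:3655362-3656072 (35.3), chr3:12670295-12670657 (33.6), chr3:11895201-11895503 (31.9), chr4:4547819-4548101 (31.4) and chr5:12644654-12644960 (20.1). Those at chr4:3655362-3656072, chr3:12670295-12670657 and chr4:4547819-4548101 lay in transcribed pseudogenes and the others in intergenic sequence. The first 4 held GA or GAA runs of 273, 160, 64 and 152 bases in the summit window. At the pseudogene AT3G31161 on chromosome 3 the NRPD1-HA folds were 21.4 and 12.7 in WT, and in the mutant 14.9 and 18.7, and the ZMP-HA folds were 2.94 and 3.17. Pol IV was strong there in both genotypes, with overlapping values. None of the 5 had a peak of a library with no transgene within 1 kb.

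Of the members with Pol IV in WT only, the 3 with the highest H3K4me3 fold were at chr3:13136971-13137280 (intergenic), at the start of AT3G42150 (uncharacterized) and at chr2:4865513-4865712 (intergenic), with H3K4me3 folds of 18.4, 10.8 and 8.17. NRPD1-HA overlapped the first with folds of 2.61 and 2.38 and the third with 2.42 and 2.05. At AT3G42150 the nearest NRPD1-HA peaks were 963 and 969 bases away in WT (folds 3.38 and 13.1), and in the mutant 1059 and 1106, so that the call rests on the 1 kb limit. The 3 strongest with Pol IV in zmp-2 only were at or in genes, namely AT5G35100, a cyclophilin-like protein, FBP, the cytosolic fructose-1,6-bisphosphatase, and AT1G42470. The nearest NRPD1-HA peaks were 84 and 175 bases away in zmp-2 at AT5G35100 (folds 3.19 and 4.26) and 2915 and 2982 in WT. At FBP they were 111 and 303 against 5865 and 4708, and at AT1G42470 419 and 372 against 5624 and 4631.

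At gene 5′ ends Pol IV stood upstream of H3K4me3. Of the 5′ end members with a non-overlapping NRPD1-HA peak within 1 kb, the peak was on the promoter side in 91.7% and 94.4% in WT, against 92.4% and 94.8% in zmp-2. Arm values were 92.3%, 94.1%, 92.8% and 93.7%. For ZMP-HA it was 81.7% (72.4% to 89.0%) and 84.5% (74.99% to 91.5%) of members, against 90.3% and 91.6% on the arms. Around the summit of the 331 members, WT NRPD1-HA peaks covered 32.3% and 38.4% of positions 1 kb upstream, 9.97% and 7.25% at the summit and 6.95% and 6.04% 1 kb into the gene. In zmp-2 the same values were 28.7% and 44.4%, 8.76% and 8.16%, and 5.74% and 6.65%. The zmp-2 libraries lay on either side of WT upstream. On the arms WT coverage was 6.67% and 7.82% 1 kb upstream and 0.837% and 0.581% at the summit.

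**Figure D5:**
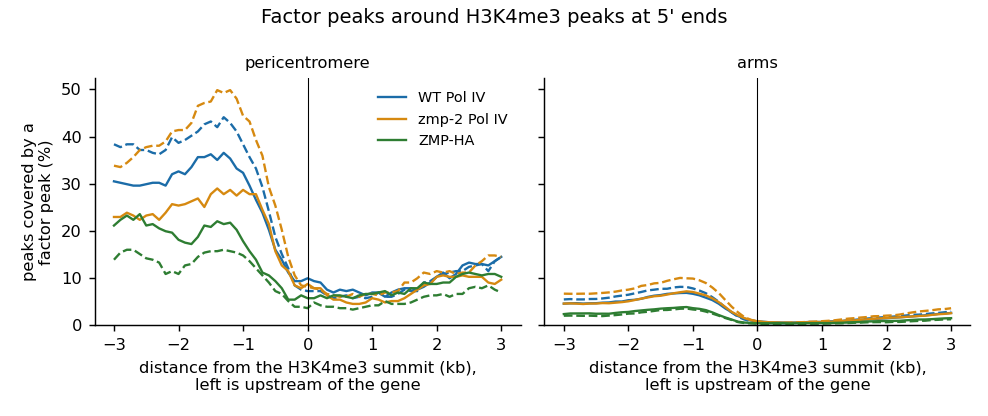
Share (%) of H3K4me3 peaks at protein-coding 5′ ends covered by a factor peak, by distance from the H3K4me3 summit (kb, upstream to the left), in the windows (left) and on the arms (right), with replicate 1 solid and replicate 2 dashed. Coverage by WT NRPD1-HA fell from 32.3% and 38.4% at 1 kb upstream to 9.97% and 7.25% at the summit of the pericentromeric peaks.

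Genes of the windows with H3K4me3 were not farther from Pol IV than genes without it. A WT NRPD1-HA peak lay within 1 kb of the 5′ end in 51.2% and 54.9% of the 295 genes with H3K4me3 and in 45.2% and 48.8% of the 613 without. In zmp-2 the shares were 46.8% and 64.1% against 34.4% and 49.4%. On the arms the order was reversed, with 10.3% and 11.5% against 13.7% and 15.1% in WT. ZMP-HA was less frequent at genes with H3K4me3 in the windows too, at 37.97% and 30.8% against 46.7% and 35.1%.

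Of 28 genes of known function in the windows that were named whatever their values, 24 had an H3K4me3 peak within 500 bases of the 5′ end, with folds of 2.98 to 133, against 32.5% of all 908 protein-coding genes of the windows. The list was made of well-studied genes and is no sample of the rest. A Pol IV peak was within 1 kb of the 5′ end in both WT libraries at 14 of the 28, in both zmp-2 libraries at 16, and a ZMP-HA peak in both libraries at 5. Over all window genes with H3K4me3 the WT shares per library were 51.2% and 54.9%. Those shares count each library alone and leave out genes without H3K4me3, so they are not a like measure. At 9 of the 28 genes none of the 6 tagged libraries had a peak within 1 kb of the 5′ end. Among small RNA and RNA processing genes, DCL3, the Dicer that cuts Pol IV transcripts, had H3K4me3 at a fold of 7.07. The nearest Pol IV peaks to its 5′ end were 6592 and 3425 bases away in WT and 234 and 213 bases away in zmp-2 (folds 2.21 and 3.58). CHR38, annotated as a SNF-domain protein of RNA silencing, had no H3K4me3 peak, and Pol IV was 924 and 841 bases away in WT, and in the mutant 819 and 805, with folds of 5.80 to 8.84. ABH1, the large nuclear cap-binding subunit, had H3K4me3 at 8.64 and Pol IV over its 5′ end at folds of 9.57 and 6.05 in WT, with ZMP-HA at 3.77 and 3.64.

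Of the chromatin and chromosome genes, ARP6, a subunit of the SWR1 complex that deposits H2A.Z, had H3K4me3 at 17.8 and Pol IV 337 and 312 bases away in WT, and in the mutant 271 and 254. MIS12, a kinetochore protein, had 7.38 and no tagged peak within 1 kb in any library. DDB1A, an adaptor of the CUL4 ubiquitin ligase, had 3.30 and no tagged peak nearer than 9380 bases. Among developmental genes, SEU, a transcriptional co-regulator of flower development, had 18.2, KNAT1, a meristem homeobox gene, 8.64, and AN3, a co-activator of leaf cell proliferation, 7.38, and none of these had Pol IV or ZMP-HA within 1 kb. TES, a kinesin of male meiotic cytokinesis, had H3K4me3 at 8.33 and a Pol IV peak within 1 kb in 1 of 2 WT and both zmp-2 libraries. TT2, a MYB factor of seed coat pigment, had no H3K4me3 peak and Pol IV within 1 kb in all 4 libraries.

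Of the signalling genes, MEKK1, a MAP kinase kinase kinase of defence, had H3K4me3 at 10.6, with Pol IV at 355 and 224 bases (folds 5.46 and 6.88) in WT and at 2048 and 389 bases in zmp-2, where the nearer peak had a fold of 2.62. SERK4 and SERK5, co-receptor kinases, had H3K4me3 at 4.56 and 3.93 and Pol IV within 1 kb in all 4 libraries. BZO2H3, which encodes the energy-signalling factor bZIP63, had 5.03 with Pol IV folds of 7.92 and 8.05 in WT, and in the mutant 8.15 and 13.03. SOS2, a salt tolerance kinase, had 2.98, the lowest of the 24.

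Among metabolic and general genes, GS2 (chloroplast glutamine synthetase, 6.44), UBQ10 (polyubiquitin, 9.74) and RP1 (ribosomal protein L3, 5.97) had H3K4me3 and no tagged peak within 1 kb. CAC2, the biotin carboxylase of the chloroplast, had 6.28, and BIP1, a chaperone of the endoplasmic reticulum, 3.93, and both had Pol IV within 1 kb in all 4 libraries. AGT, a photorespiratory aminotransferase, had no H3K4me3 peak, and Pol IV stood 581 and 492 bases from its 5′ end in WT with folds of 13.3 and 9.83. SUS4, a sucrose synthase, had neither. DRP3B, a dynamin-related protein of mitochondrial division, had H3K4me3 at 3.30 and Pol IV over its 5′ end in all 4 libraries, at folds of 15.2 and 9.62 in WT, and in the mutant 8.01 and 10.3. ATMIN7, an ARF guanine nucleotide exchange factor of immunity, had 6.13 with Pol IV and ZMP-HA within 1 kb in all 6. DAYSLEEPER, a domesticated transposase, had 6.44, and only 1 zmp-2 library had Pol IV within 1 kb. J3 and ACC1, among the strongest members, had Pol IV within 1 kb in 3 and 1 of the 4 NRPD1-HA libraries.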

How the data were processed

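Peak lists of the 11 immunoprecipitates were used, and inputs entered only through peak calling. Per the study's methods and submitters' processing notes, paired reads were trimmed by the authors (Trim Galore 0.4.3), aligned to TAIR10 with Bowtie2 (2.2.9), and peaks were called per library with MACS2 (2.2.6) against input. The deposited lists give positions, a score (not used), the authors' fold enrichment over local background (a linear ratio), and p- and q-values as −log10, with no deposited q-value above 0.05. They hold no read counts. Pileup and background were solved from the deposited fold and p-value of each peak, with the p-value rebuilt within 1% for 98.6% to 100% of peaks. Distances were edge to edge, with genes from RefSeq TAIR10.1. Peaks on organelle genomes were left out. Interval functions were tested on simulated data. Python 3.11.15, numpy 2.4.6, pandas 2.3.3 and scipy 1.17.1 were used.

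Groups came from the sample labels. Genotypes were compared by exact two-sided permutation over libraries, the replicates; p-values measure only the spread between these libraries. All else is description, with Clopper-Pearson 95% intervals. Named regions were the 10 members with the highest H3K4me3 fold, the 3 widest, the 5 highest of those overlapped in all 6 tagged libraries, and the 3 highest with Pol IV within 1 kb in both libraries of only 1 genotype, beside 28 listed genes (of 29, 1 lay outside the windows). The members and lists were chosen with earlier results of these data known. Alternatives were stricter q-values, narrower windows, joined peaks, other flanks, removal of peaks shared with the matching libraries with no transgene, lists of equal length (6730 peaks), 5′ end members only, leaving out each replicate, a replicate block, coverage of most of a peak and 5′ ends within 1000 bases. Those without telomere-like members, with the usual background or with a unique summit were chosen after seeing the data.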

Additional observations from a re-analysis of the deposited data

How the results depend on the processing

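With H3K4me3 or factor q-values of 0.01, no result changed its direction and no share moved beyond the spread between replicates. With lists of equal length the zmp-2 minus WT difference within 1 kb grew from -3.56 (exact permutation p = 1) to -6.94 points (p = 0.333, the smallest possible), and windows minus arms from -5.23 to -8.38. With narrowed windows the former was -5.98 (exact permutation p = 0.667). The zmp-2 minus WT difference reversed with 5′ end members only, to 4.38 points within 1 kb, 0.151 points for overlap and 2.52 points for windows minus arms. Leaving out each replicate gave -9.09 to 1.97 points within 1 kb, the highest without zmp-2 replicate 1, -8.00 to -2.50 for overlap and -9.17 to -1.30 for windows minus arms. The shares within 1 kb then ranged from 41.6% to 44.3% (WT), 33.8% to 44.9% (zmp-2) and 43.3% to 51.4% (ZMP-HA).

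A replicate block left the differences at -3.56, -5.25 and -5.23 points (exact sign-flip p = 1, 0.5 and 0.5, the last being the smallest that 2 pairs allow). The labels do not say that a number marks a shared planting. Deviations of same-numbered WT and zmp-2 libraries from their means correlated at 0.295 over all peaks and 0.158 over the members.

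Shares within 1 kb (WT, zmp-2 and, where it moved, ZMP-HA) were 35.6% and 29.6% with narrowed windows, 52.3%, 48.6% and 60.4% with a 2 kb flank, 34.0%, 29.8% and 33.9% with 500 bases, 51.5%, 55.9% and 34.0% at 5′ ends, 55.5% and 50.4% without telomere-like members, 53.3% and 49.2% at the usual background and 51.5% and 47.3% with a unique summit. WT moved to 50.05% with joined peaks. It moved to 38.7% (ZMP-HA to 40.3%) without peaks shared with libraries with no transgene. Members at a 5′ end made up 13.7% with narrowed windows, 26.5% with joined peaks, 29.6% with a distance of 1000 bases, 30.7% without telomere-like members, 39.1% at the usual background and 29.0% with a unique summit. Median fold became 3.46, 4.24 with joined peaks, 4.24 without telomere-like members, 4.56 and 4.24. Median width became 181 bases with narrowed windows, 228 with joined peaks and 198 with a unique summit. The cause of these shifts was not tested.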

Other observations

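Seen from the Pol IV side, the NRPD1-HA peaks that overlapped a member were stronger and wider than the other NRPD1-HA peaks of the windows. In WT, 251 of 2468 and 264 of 2412 peaks overlapped a member, with median folds of 4.63 against 2.69 and 3.80 against 2.14 and median widths of 2238 against 786 and 3564 against 890 bases. On the arms the WT values were 6.50 against 4.19 and 4.98 against 3.45 for fold and 1331 against 742 and 1726 against 810 bases for width, so this was not particular to the windows. In zmp-2 the median folds were 3.26 against 2.35 and 3.55 against 2.22. For ZMP-HA the folds were 2.40 against 2.21 and 2.09 against 2.04, and the widths 1226 against 798 and 815.5 against 644 bases. Wider peaks overlap more by construction. These values are a description, with no test.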
